A study of Mus musculus with 4 samples.

Results

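The cytosolic ribosomal proteins are the protein parts of the ribosome that works in the cytoplasm, and their genes were taken from the table by symbol: Rps or Rpl followed by a number, with a paralog suffix allowed, Rpsa, and Rplp0, Rplp1 and Rplp2. The rule found 84 genes, and 80 of them reached a mean of 1 FPKM over the 4 libraries, out of 17505 genes in the table and 11621 genes at that level. FPKM counts the fragments of a gene relative to transcript length and to all mapped fragments. The rule used names alone and no measured value except this filter. It leaves out ribosomal proteins named otherwise, such as Fau, Rpl36al, Rps27rt and Rack1, which are described with the related genes.

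All 4 libraries came from C57BL/6 mice, 6 to 8 weeks old and of both sexes per the study's reporting, which had received 10 Gy of abdominal X-rays and were sampled on day 3. In the Vil-CREPTKO mice a Cre recombinase under the villin promoter had removed the floxed exon 3 of Rprd1b in the intestinal epithelium. Rprd1b is the gene of CREPT, an RNA polymerase II-binding protein. The WT mice received the same X-rays, so no unirradiated library stands beside them. The design asks how loss of CREPT changes RNA levels while the intestine regenerates. Each group had 2 libraries of total RNA, labelled as intestine, whose segment and use of whole tissue or crypts the sources leave unsettled. Cells outside the epithelium keep the gene in Vil-CREPTKO mice.

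Each ribosome holds 1 copy of nearly all of these proteins, built onto ribosomal RNA in a small subunit, which reads the mRNA, and a large subunit, which joins amino acids. Their mRNAs are among the most abundant in any growing cell. Most begin with a run of C and T bases, the terminal oligopyrimidine (TOP) tract, through which mTOR signalling and the RNA-binding protein Larp1 adjust the translation and stability of the whole set together. The crypts of the intestine renew the epithelium continuously and depend on a high rate of ribosome production. A few members have paralogs, such as Rpl22l1 and Rps27l, that can take the place of the usual protein.

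Rprd1b stood at 4.01 and 3.93 FPKM in Vil-CREPTKO 1 and 2 and at 5.99 and 7.19 FPKM in WT 1 and 2. The log2 fold change was -0.61 with an adjusted p of 0.129 by limma, so the direction matched the labels without a call. FPKM is given for the whole gene and not for the floxed exon, so it does not measure the deletion. Each library listed between 16314 and 16499 genes above 0, and the summed FPKM lay between 560644 and 583262. Enterocyte markers were plentiful in all 4 libraries, with a summed level between 19797 and 23507 FPKM for 11 genes. The groups differed in genes of the stomach, and single libraries differed in genes of the pancreas. The 7 stomach mucous markers summed to 21.2 and 106 FPKM in Vil-CREPTKO 1 and 2 and to 38491 and 41978 FPKM in WT 1 and 2, and all 7 were called lower. The 10 pancreatic acinar markers summed to 19.1 and 10187 FPKM in Vil-CREPTKO 1 and 2 and to 19013 and 6879 FPKM in WT 1 and 2. These sums overlapped between the groups, and 0 of the 10 were called. The stomach and pancreas sums are part of what FPKM is relative to, so the ribosomal protein values are given below with and without them.

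Runs of C and T bases around the start were looked for in RefSeq promoter sequences (GRCm38.p6), which were at hand for 60 of the 80 members and for 9330 tested genes. A run of at least 8 C or T bases between 20 bases before and 50 bases after the annotated start was present in 47 members, or 78.3%, against 27.7% of all tested genes. Of the 10 members with the highest and lowest fold changes described below, 8 had such a run, and these runs are shown because the feature was more frequent in members than elsewhere and occurs at both ends of their range of group differences. Capitals mark the run, 5′ to 3′ on the gene's strand.
Rplp2, chr7:141447636-141447665, plus strand: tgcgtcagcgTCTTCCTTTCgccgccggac
Rpl35, chr2:39005115-39005144, minus strand: gccccgCCCTTTCCTCTTTCTCTCgaacca
Rps27l, chr9:66946064-66946093, plus strand: ctcctctccaCTCCTCCCCgccgcctctat
Rpl34, chr3:130730330-130730359, minus strand: acccgCCCCTTCCTTTTCCTCTTCCgggga
Rpl22l1, chr3:28805499-28805528, plus strand: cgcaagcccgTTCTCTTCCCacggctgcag
Rps19, chr7:24884612-24884641, plus strand: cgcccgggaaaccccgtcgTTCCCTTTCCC
Rps27, chr3:90213631-90213660, minus strand: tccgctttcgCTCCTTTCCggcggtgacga
Rpl31, chr1:39367825-39367854, plus strand: tcgccacaCCTCTTCCTCCTCgcctccccg
The first 4 belong to members with the highest log2 fold changes and the last 4 to members with the lowest, with runs of 9 to 20 bases in the first set and of 9 to 13 bases in the second. The runs of Rplp2, Rpl35, Rpl34 and Rps27 lie over the annotated start and that of Rpl22l1 begins at base 2 of the transcript, as a TOP tract would, whereas that of Rps19 begins at base 40 and those of Rps27l and Rpl31 end before the annotated start. A run counted here is therefore not in every case at the 5′ end of the mRNA. Any annotated start of a gene counted, and the one shown for Rps27l lies downstream of the gene's first base (66944624). The run of Rps19 reaches base 50, the end of the window, so its length may be cut short.

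Other promoter motifs were counted on both strands from 250 bases before to 50 bases after the start. CCGGAAG, the core bound by Ets family factors such as GABP, was in 41.7% of members and 20.2% of tested genes. AANATGGC, which holds the core of the YY1 motif, was in 21.7% and 9.96%. The GC box GGGCGG (63.3% against 67.8%), the TATA box TATAAA (11.7% against 9.61%) and the E-box CACGTG, to which Myc binds (10.0% against 11.7%), were about as frequent in members as elsewhere. A match of letters is a description and no evidence of binding. The members lie on 19 chromosomes, with 14 of the 80 on chromosome 7 (17.5%, against 7.55% of tested genes).

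The 80 genes were expressed at high levels in every library. Their mean level ran from 23.9 FPKM in Rpl7l1 to 1852 FPKM in Rpl41, with a median of 456.5 FPKM against 8.62 FPKM for all tested genes, and 75 of the 80 reached 100 FPKM. They made up 44 of the 200 most abundant genes. Rpl41, the shortest protein of the large subunit, was at 2087 and 1544 FPKM in Vil-CREPTKO 1 and 2 and at 1661 and 2115 FPKM in WT 1 and 2. Rps26, which lines the mRNA exit channel, was at 1307 and 961.4 FPKM in Vil-CREPTKO and at 1004 and 1264 FPKM in WT. In both genes the libraries of the 2 groups interleaved.

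The order of the members was nearly the same in each library, with Pearson correlations across the 80 genes of 0.990 to 0.997 between libraries, on the log2 scale. These genes are not independent replicates and share each library's depth. At the low end, below 100 FPKM, stood the paralogs Rpl7l1 (23.9 FPKM) and Rpl22l1 (42.9 FPKM) and 3 members of the usual ribosome: Rps15a (28.5 FPKM), Rps20 (56.6 FPKM) and Rpl22 (72.9 FPKM). Proteins held in equal numbers by a ribosome were thus listed at unequal mRNA levels. FPKM is relative to transcript length, and the median annotated transcript has 3706 bases in Rps20, 2048 in Rpl22 and 638 in Rps15a. Over all members the median is 703.5 bases. The part of annotated length in these low values was not tested. The 4 genes under the filter were all paralogs. Rpl3l, known from skeletal and heart muscle, was listed at 0.12, 0, 0.08 and 0.11 FPKM in Vil-CREPTKO 1, Vil-CREPTKO 2, WT 1 and WT 2, and Rpl10l, Rpl39l and Rpl32l did not exceed 0.11 FPKM in any library. Rps4l was not among the genes analysed here.

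No member differed between Vil-CREPTKO and WT by the call used, which asks for a limma adjusted p below 0.05 and a log2 fold change past 1 either way, against 2.07% of all tested genes (241 of 11621, of which 45 were higher and 196 lower). With the adjusted p alone 0 of 80 members passed and 2.16% of all genes. Even at an unadjusted p under 0.05 the count was 0 of 80 members, where 20.2% of tested genes passed. Both Vil-CREPTKO libraries lay below both WT libraries in 4 members, Rpl22l1, Rpl30, Rps19 and Rpl7l1, which is 5% of the members beside 22.1% of tested genes. Both lay above in 0 members, beside 31.9% of tested genes.

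Log2 fold changes of the 80 members, Vil-CREPTKO relative to WT on the log2(FPKM + 1) scale, ran only from -0.50 to 0.22. The median was -0.08, with quartiles at -0.16 and -0.01, and 63 of 80 were below 0. Over all tested genes the median was 0.06, the quartiles were -0.18 and 0.26, and 42.6% were below 0. The 95% interval of the difference fitted within -1 and 1 in 78 of 80 members (97.5%) and in 76.6% of tested genes. In this fit a halving or doubling thus lay outside the interval for these 78, with Rpl22l1 and Rps28 as the exceptions. Some only just fitted, with lower ends of -0.997 in Rps27, -0.993 in Rps21 and -0.977 in Rpl30. After the rescaling described below their log2 fold changes were lower (-0.45, -0.41 and -0.52), and the statement is not made for that scaling. The small subunit (32 genes, median -0.08, 27 below 0) and the large subunit (45 genes, median -0.08, 35 below 0) stood alike, and the 3 stalk proteins had a median of 0.00.

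**Figure D1:**
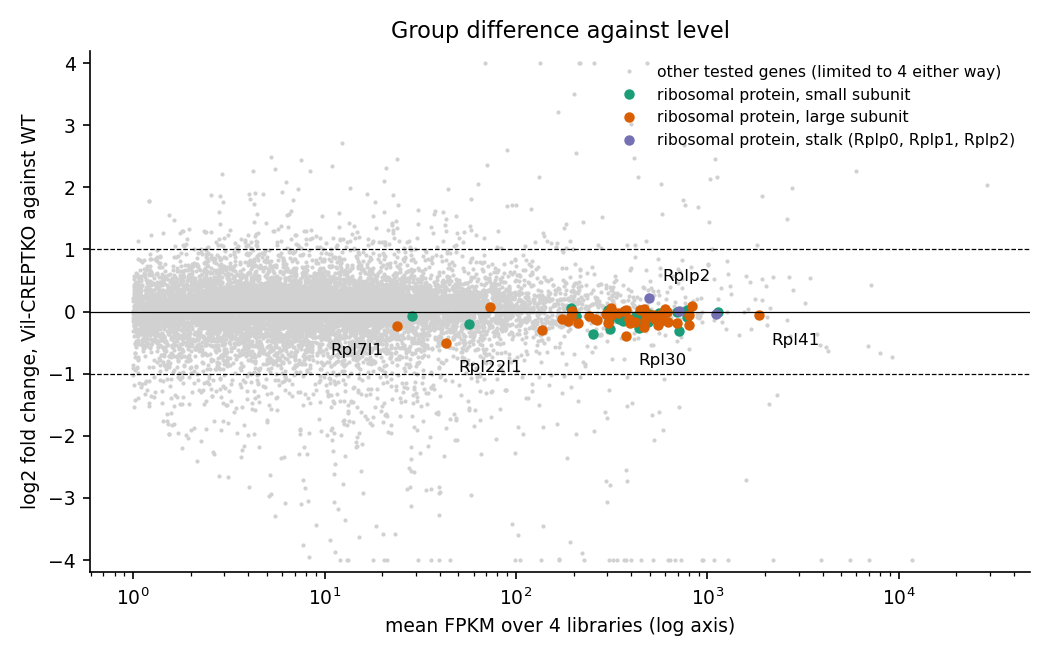
Log2 fold change of Vil-CREPTKO against WT (vertical axis) against mean FPKM over 4 libraries (horizontal, log axis) for 11621 tested genes, with the 80 ribosomal protein genes coloured by subunit and dashed lines at the fold threshold of 1. The ribosomal protein genes form a narrow band between -0.50 and 0.22, mostly just under 0, at levels where other genes spread past the threshold.

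That median lies within the spread of the libraries, and its sign rests on which of them are used. It stayed below 0 when libraries were centred on their own median (-0.09, with 66 of 80 members below 0) and after quantile normalization (-0.09, with 60 of 80). It went to 0.10 without Vil-CREPTKO 2 or without WT 2 and to -0.26 and -0.25 without Vil-CREPTKO 1 or WT 1. When each library was rescaled to its sum without the stomach and pancreas markers, the median was -0.21 beside -0.06 for all tested genes, with 79 of 80 members below 0, 2 at an unadjusted p under 0.05 in limma (Rpl22l1 and Rpl7l1) and 0 called. The part of the stomach and pancreas RNA in the group difference was not tested further.

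Ribosomal protein mRNA as a share of the whole gave the same account. The 80 genes held 7.02% and 5.60% of the summed FPKM in Vil-CREPTKO 1 and 2 and 5.97% and 7.39% in WT 1 and 2. Each group thus had a high and a low library. The group means were 6.31% ± 1.0 (SD, n = 2) and 6.68% ± 1.0 (SD, n = 2), with a two-sided exact permutation p of 0.667, where 2 against 2 libraries cannot go below 0.333. Without the stomach and pancreas markers in the sum the shares were 7.02%, 5.71%, 6.65% and 8.08% in the same order, with an exact p of 0.667 again.

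Ribosomal protein genes differed between the libraries of each group, and all in the same sense. All 80 members were higher in Vil-CREPTKO 1 than in Vil-CREPTKO 2 and higher in WT 2 than in WT 1, a combination seen in 42.9% of tested genes. The combination is the order the members themselves showed and not one set by the labels, so their count is a description and no test. The members also share each library's shift and are not 80 independent cases. The median log2 difference was 0.36 in Vil-CREPTKO (1.28-fold) and 0.33 in WT (1.26-fold), against 0.05 and 0.12 over all tested genes. Across members the difference ran from 0.12 to 0.79 in Vil-CREPTKO and from 0.03 to 0.52 in WT. In 67 of 80 members (83.8%, against 29.0% of tested genes) both within-group differences exceeded the difference between groups.

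**Figure D2:**
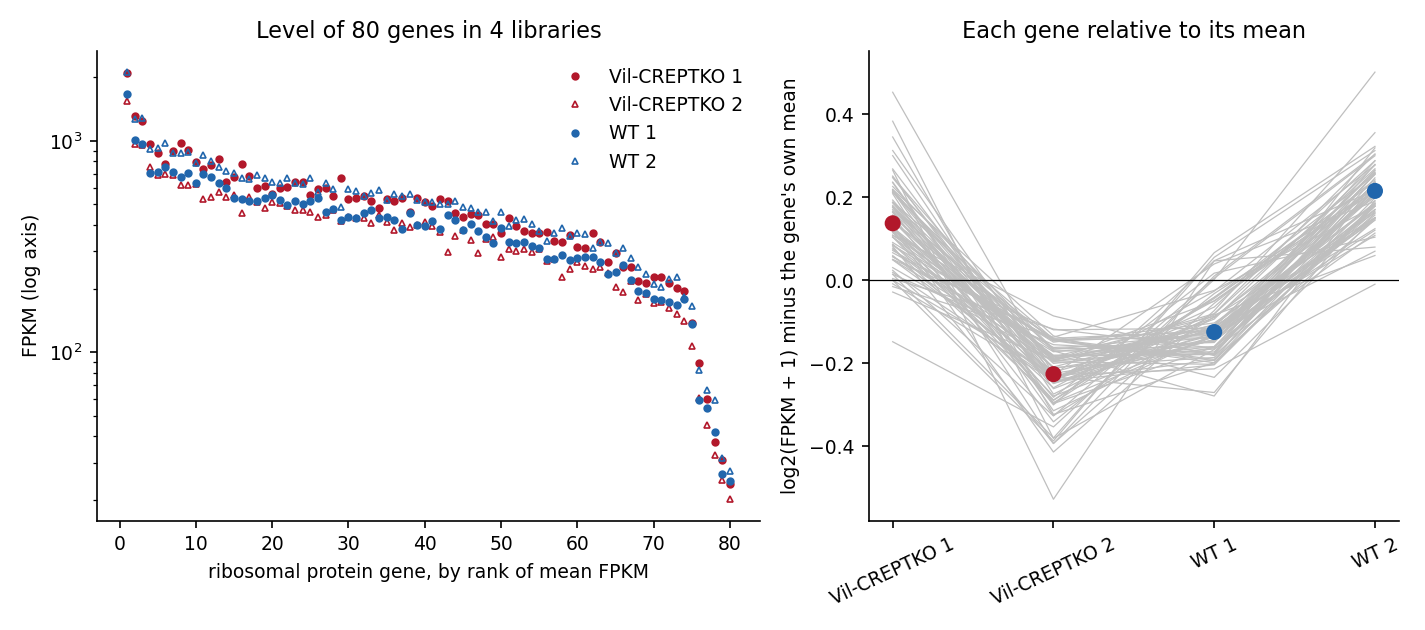
Left, FPKM (log axis) of the 80 ribosomal protein genes in each of the 4 libraries, ordered by mean level; right, each gene's log2(FPKM + 1) minus its own mean over the libraries (grey lines), with the median of the 80 genes in each library as a large point. The medians were 0.14 and -0.23 in Vil-CREPTKO 1 and 2 and -0.13 and 0.21 in WT 1 and 2, and the lines run almost in parallel.

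The members moved by similar amounts. Between their 0.1 and 0.9 quantiles the within-group difference spanned 0.33 in Vil-CREPTKO and 0.20 in WT, against 0.83 and 0.67 over all tested genes. The median level of a member was 500.6 and 385.7 FPKM in Vil-CREPTKO 1 and 2 and 412.0 and 514.4 FPKM in WT 1 and 2, while the median tested gene stayed between 7.99 and 8.76 FPKM. The combination, taken from the members' own order, held in 78 of 80 members with libraries centred on their medians (32.2% of tested genes). It held in 78 after quantile normalization (31.8%) and in 79 after rescaling without the stomach and pancreas markers (33.9%). These counts describe the same order again and are no further test of it. The 4 libraries carry no batch label, so whether preparation or animal set this order cannot be told apart.

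**Figure D3:**
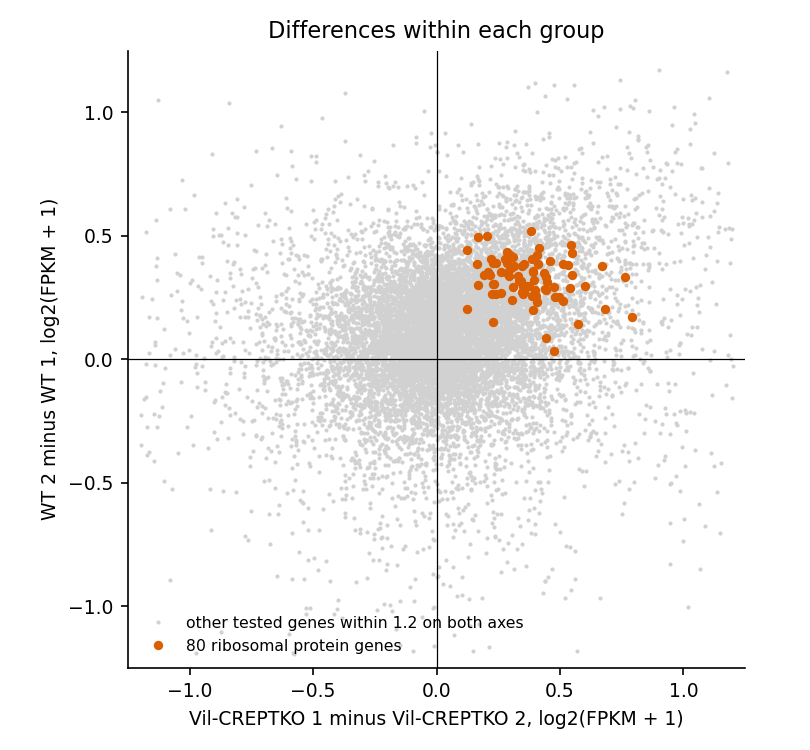
Difference between the libraries of each group on the log2(FPKM + 1) scale, Vil-CREPTKO 1 minus 2 (horizontal) and WT 2 minus WT 1 (vertical), for each tested gene within 1.2 on both axes (grey) and for the 80 ribosomal protein genes (orange). All 80 lie in the upper right quadrant, where 42.9% of tested genes lie. The direction of each difference was set by the order that the members showed.

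Some other measures took the same or the opposite order within the groups. Summed levels of the 6 smooth muscle markers, from the muscle coat of the gut, were 939.2 and 606.6 FPKM in Vil-CREPTKO 1 and 2 and 671.9 and 1029 FPKM in WT 1 and 2, and each of the 6 was higher in Vil-CREPTKO 1 and in WT 2, with median log2 differences of 0.57 and 0.58. The combination held in 5 of 7 macrophage markers (summed levels of 516.5, 387.9, 258.3 and 324.1 FPKM in Vil-CREPTKO 1, Vil-CREPTKO 2, WT 1 and WT 2), with medians of 0.24 and 0.22. The 10 pancreatic acinar markers ran the opposite way, with medians of -8.66 and -1.82 and the combination in 0 genes, so that within each group they were higher where ribosomal protein genes were lower. Enterocyte markers had medians of -0.06 and -0.01 over 11 genes, and the 12 cycling-cell genes had 0.01 and 0.28. The 6 Paneth cell markers had 1.18 and 0.04, with the combination in 3 genes. The neutrophil list had 1.83 and 0.27, with the combination in 2 of 3 tested genes, at summed levels of only 2.69 to 18.31 FPKM. It held in 1 of 7 goblet cell markers, 1 of 5 B and plasma cell markers and 0 of 5 T cell markers. In bulk RNA fewer cells of a type and less RNA per cell cannot be told apart. Transcript length went with this order too. Members have a median transcript of 703.5 bases against 2066 for tested genes, and other genes under 600 bases had median within-group differences of 0.17 and 0.20 (55.3% with the combination) where those of 3000 bases or more had 0.00 and 0.06 (33.5%). The part of RNA from these cell types and organs, and of transcript length, in the result was not tested.

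Proteins of the mRNA channel and head of the small subunit followed the set. Rps2, at the mRNA entry channel, was at 896.4 and 691.4 FPKM in Vil-CREPTKO 1 and 2 and at 710.9 and 873.0 FPKM in WT 1 and 2, a log2 fold change of 0.00. Rps15, in the head near the decoding site, was at 979.9, 616.1, 671.8 and 872.9 FPKM in that order. Rps12, at the beak of the head, was at 904.3, 617.5, 702.3 and 888.9 FPKM. In all 3 genes the Vil-CREPTKO values enclosed both WT values. Over 9 genes of the mRNA channel and head the median log2 fold change was -0.06 with 0 called, beside 2.07% of all tested genes.

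Rps19 and Rps27 lay at the lower edge of the small subunit. Rps19, whose human gene is the one most often mutated in Diamond-Blackfan anaemia, was at 252.2 and 191.6 FPKM in Vil-CREPTKO 1 and 2 and at 259.4 and 310.3 FPKM in WT 1 and 2. Its groups did not overlap, by a margin of only 252.2 against 259.4 FPKM, and its log2 fold change of -0.37 had an adjusted p of 0.410 by limma. Of 18 genes mutated in that human disease 0 were called and 16 were below 0, with a median of -0.12, close to the 63 of 80 below 0 among all members and beside 2.07% called and 42.6% below 0 among tested genes. Rps27a, made as a fusion with ubiquitin, was at 376.4, 306.3, 330.4 and 428.3 FPKM, with overlapping groups.

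In the large subunit, Rpl23a and Rpl35, at the exit of the tunnel through which the new protein leaves, stood among the 10 most abundant members. Rpl23a was at 880.0 and 692.9 FPKM in Vil-CREPTKO 1 and 2 and at 712.7 and 926.3 FPKM in WT 1 and 2. Rpl35 was at 961.6, 752.6, 702.1 and 917.1 FPKM in the same order, with a log2 fold change of 0.08. Rpl10, which joins the subunit last, was at 777.8, 693.6, 750.2 and 979.9 FPKM, with a log2 fold change of -0.22 and an adjusted p of 0.645 by limma. In all 3 the groups overlapped. Rpl34, a large-subunit protein at 369.3, 271.3, 276.9 and 336.2 FPKM, had a log2 fold change of 0.05.

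Rpl30 was the lowest of the usual large-subunit proteins, at 367.9 and 281.0 FPKM in Vil-CREPTKO 1 and 2 against 385.3 and 460.3 FPKM in WT 1 and 2. The log2 fold change was -0.39 (95% interval -0.98 to 0.20, adjusted p 0.40, limma), without overlap of the groups. Rpl5 and Rpl11, which with 5S ribosomal RNA bind Mdm2 and so stabilise p53 when ribosome assembly fails, were called in neither direction. Rpl5 was at 217.5, 176.3, 195.5 and 253.1 FPKM and Rpl11 at 460.8, 392.0, 455.1 and 562.3 FPKM, with log2 fold changes of -0.18 and -0.25. Of 12 genes of the p53 response 0 were called, beside 2.07% of all tested genes, and their median log2 fold change was 0.24. Cdkn1a, a cell cycle inhibitor, was at 327.8, 257.5, 276.4 and 272.1 FPKM. Ccng1, a cyclin induced by p53, went against that median, at 91.9, 89.3, 117.5 and 129.7 FPKM with a log2 fold change of -0.44 (adjusted p 0.211, limma).

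The stalk, which recruits the elongation factors, held the member with the highest fold change. Rplp2 was at 669.1 and 416.9 FPKM in Vil-CREPTKO 1 and 2 and at 421.1 and 485.3 FPKM in WT 1 and 2. Vil-CREPTKO 1 alone stood high, the groups overlapped, and the log2 fold change of 0.22 had an adjusted p of 0.699 by limma. Its partner Rplp1 was at 1247, 952.5, 968.6 and 1285 FPKM and the stalk base Rplp0 at 792.1, 627.3, 629.4 and 784.7 FPKM, both high in Vil-CREPTKO 1 and in WT 2. Rplp2 thus ran at 53.7% and 43.8% of Rplp1 in Vil-CREPTKO and at 43.5% and 37.8% in WT. Of the 50-base stretches in its transcripts 28.0% also occur in those of Wdr89, so its level depends on how shared reads were divided.

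Rpl22l1 had the lowest fold change of all members. It is the paralog of Rpl22 in the large subunit, and in mice Rpl22 represses its mRNA. Rpl22l1 (NCBI gene 68028, chromosome 3, 28805508 to 28807424) was at 37.6 and 32.5 FPKM in Vil-CREPTKO 1 and 2 and at 41.8 and 59.6 FPKM in WT 1 and 2, means of 35.0 ± 3.62 and 50.7 ± 12.5 FPKM (SD, n = 2). The log2 fold change was -0.50 with a 95% interval of -1.05 to 0.05 and an adjusted p of 0.278 by limma, so it was not called. Rpl22 was at 89.3 and 60.9 FPKM in Vil-CREPTKO and at 59.3 and 82.1 FPKM in WT, in the order of the whole set. Relative to Rpl22, Rpl22l1 stood at 42.1% and 53.3% in Vil-CREPTKO 1 and 2 and at 70.6% and 72.6% in WT 1 and 2. This ratio is free of any scaling between libraries, and its groups did not overlap, for which an exact permutation test of 2 against 2 libraries gives at best 0.333. The coding sequences of the pair are 69.4% identical over 366 aligned bases. Of the 50-base stretches of Rpl22l1 51.4% occur in other annotated genes, against 5.16% for Rpl22, so the ratio too depends on how shared reads were divided.

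Rps27l, a p53 target gene and the paralog of the small-subunit zinc-finger protein Rps27, went the other way relative to its partner. Rps27l was at 226.2 and 172.1 FPKM in Vil-CREPTKO 1 and 2 and at 176.8 and 202.9 FPKM in WT 1 and 2, with a log2 fold change of 0.06. Rps27 was at 736.4 and 529.3 FPKM in Vil-CREPTKO and at 700.6 and 858.7 FPKM in WT, with a log2 fold change of -0.31 (adjusted p 0.550, limma). The ratio was 30.7% and 32.5% in Vil-CREPTKO 1 and 2 and 25.2% and 23.6% in WT 1 and 2, again without overlap. Among 8 such ratios computed the groups did not overlap in 5, so the lack of overlap sets neither ratio apart from the others computed. For the levels of single tested genes the groups were apart in 22.1% in the lower and 31.9% in the higher direction. No such share was computed for ratios of 2 genes. Bases 7 to 36 of the Rps27 coding sequence are shown with the same stretch of its copies (GENCODE vM21, GRCm38), because how well reads can be told apart decides what the ratio means. Capitals mark differences from Rps27.
Rps27, chr3:90213272-90213301, minus strand: ctcgcaaaggatctccttcatccctctcca
Rps27l, chr9:66946831-66946860, plus strand: ctGgcTaGAgatctGTtAcaCccTtcCTTG
Rps27rt, chr9:114982672-114982701, minus strand: ctcgcaaaggatctccttcatccctctcca
Rps27l differs from Rps27 at 61 of 255 coding bases and at 13 of these 30. Rps27rt, a retrocopy outside the symbol rule, is identical over all 255, and 46.2% of the 50-base stretches of Rps27 occur in it as well. It was listed at 0 in both Vil-CREPTKO libraries and in WT 1 and at 13.96 FPKM in WT 2, so nearly all shared reads had been assigned to Rps27.

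Rpl7l1, a relative of Rpl7 with a part in assembling the large subunit, was at 23.8 and 20.1 FPKM in Vil-CREPTKO 1 and 2 and at 24.4 and 27.3 FPKM in WT 1 and 2, with a log2 fold change of -0.23 (adjusted p 0.459, limma). It stood at 3.88% and 4.17% of Rpl7 in Vil-CREPTKO and at 4.57% and 4.09% in WT, with overlap.

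**Figure D4:**
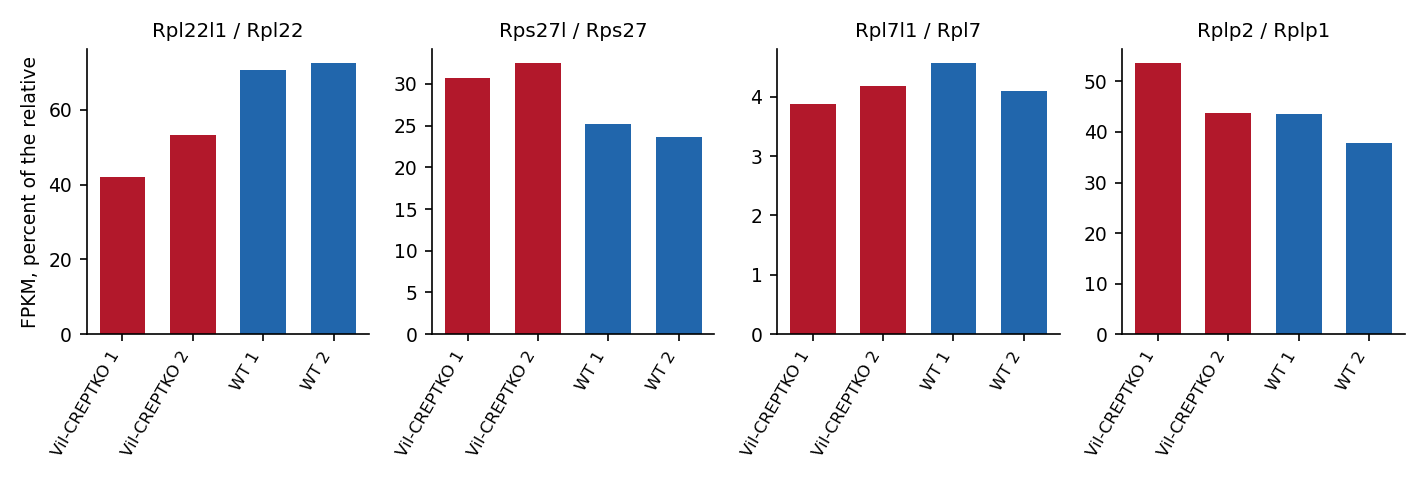
FPKM of a member as a percent of its relative in each of the 4 libraries (bars from 0, red Vil-CREPTKO, blue WT), for Rpl22l1 against Rpl22, Rps27l against Rps27, Rpl7l1 against Rpl7 and Rplp2 against Rplp1. Rpl22l1 ran at 42.1% and 53.3% of Rpl22 in Vil-CREPTKO and at 70.6% and 72.6% in WT, Rps27l at 30.7% and 32.5% of Rps27 against 25.2% and 23.6%, and Rpl7l1 overlapped between groups.

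Rpl31, near the tunnel exit, had a near-identical copy that was listed above it. Rpl31 was at 137.1 and 107.3 FPKM in Vil-CREPTKO 1 and 2 and at 135.3 and 166.2 FPKM in WT 1 and 2, a log2 fold change of -0.30 (adjusted p 0.463, limma). Rpl31-ps12, named as a pseudogene and outside the symbol rule, was listed at 261.3, 217.4, 274.5 and 348.0 FPKM, or 191%, 203%, 203% and 209% of Rpl31. The pair is shown over bases 108 to 137 of the Rpl31 coding sequence, with differences in capitals, because they differ at only 4 of 375 aligned bases and their levels are uncertain for that reason.
Rpl31, chr1:39370014-39370043, plus strand: gggcttcaagaagcgtgctcctcgggcact
Rpl31-ps12, chr16:16819987-16820016, minus strand: gggTttcaagaagcAtgctcctcgggcact
Such copies are common in this family. Among 80 members 13 share a 50-base stretch with another gene of the table and 6 share over 10% of theirs (Rps27, Rpl37, Rplp2, Rpl31, Rpl21 and Rpl34). Against all annotated genes, pseudogenes included, the median member shares 35.5%, and 22 share over 50%.

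Of the 4 ribosomal proteins under other symbols, 3 took the same order, all but Rps27rt, which was listed at 0 in 3 libraries. Fau, which yields Rps30, was at 861.4 and 672.3 FPKM in Vil-CREPTKO 1 and 2 and at 664.2 and 828.3 FPKM in WT 1 and 2. Rack1, on the head of the small subunit, was at 302.0, 258.3, 290.0 and 351.0 FPKM in the same order. Both were higher in Vil-CREPTKO 1 than in Vil-CREPTKO 2 and higher in WT 2 than in WT 1. Rpl36al ran at 69.2% and 69.1% of Rpl36a in Vil-CREPTKO 1 and 2 and at 68.9% and 68.1% in WT 1 and 2. This ratio is among the 5 without overlap of the groups, by a margin of only 69.1% against 68.9%. None of the 4 genes was called, beside 2.07% of all tested genes, and the median log2 fold change was -0.18.

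The 18 other TOP mRNAs tested, which code for elongation factors and for other proteins such as Npm1 and Vim, also took this order in every case. Their median log2 differences were 0.22 within Vil-CREPTKO and 0.29 within WT. Of these genes 0 were called, beside 2.07% of all tested genes, and the median log2 fold change was 0.05. Eef1a1, which brings aminoacyl-tRNA to the ribosome, was at 1991 and 1809 FPKM in Vil-CREPTKO 1 and 2 and at 2034 and 2403 FPKM in WT 1 and 2. Tpt1 was at 1700, 1426, 1521 and 1601 FPKM.

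Lists farther from the ribosome showed the combination in a smaller part of their genes, always to be read beside 42.9% of all tested genes. It held in 22 of 31 initiation factors (median log2 fold change 0.18), among them Eif5a at 471.3, 375.5, 317.8 and 391.2 FPKM and Eif1 at 357.2, 302.0, 267.2 and 295.9 FPKM. It held in 12 of 16 chaperones and export factors for ribosomal proteins (median 0.10). Aamp, of this list, had it at 67.0, 54.4, 48.5 and 55.8 FPKM, and Sbds, at 93.7, 114.2, 117.8 and 111.8 FPKM, ran the opposite way within both groups. The mitochondrial ribosome, a separate machine with its own nuclear genes, had it in 65 of 78 genes (median -0.01), with median within-group differences of 0.14 and 0.27, and its most abundant genes were Mrpl52 (127.6, 88.6, 106.2 and 132.8 FPKM) and Mrps21 (93.8, 81.8, 80.8 and 106.3 FPKM). None of these lists held a called gene, beside 2.07% of all tested genes called. The respiratory chain, a list chosen after values were seen and also made of short transcripts (median 637 bases), had it in 41 of 76 genes, with 0.02 within Vil-CREPTKO and 0.32 within WT.

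**Figure D5:**
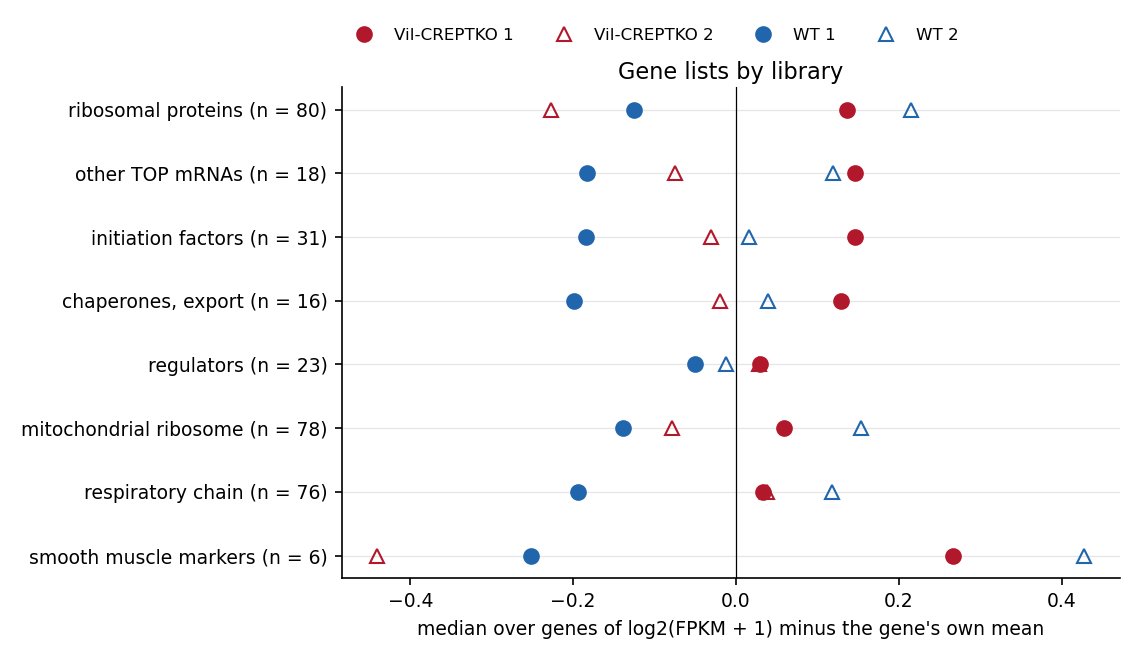
Median over the genes of a list of log2(FPKM + 1) minus each gene's own mean, by library (filled and open red, Vil-CREPTKO 1 and 2; filled and open blue, WT 1 and 2). The ribosomal protein genes stood at 0.14, -0.23, -0.13 and 0.21, the smooth muscle markers spread farther in the same order (0.27, -0.44, -0.25 and 0.43), and the regulators stayed between -0.05 and 0.03.

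The regulators of TOP mRNAs and of ribosomal protein genes, 23 genes such as Mtor and Larp1, had the combination in 7 genes and median within-group differences of 0.06 and 0.04. A single gene of this list was called. Myc, a transcription factor that drives ribosome production, was at 30.6 and 26.5 FPKM in Vil-CREPTKO 1 and 2 and at 12.1 and 14.1 FPKM in WT 1 and 2. Both Vil-CREPTKO libraries were above both WT libraries, and the log2 fold change of 1.07 had an adjusted p of 0.0471 by limma, close to both thresholds. The call was lost with pseudocounts of 0.1 and 5, without the filter, without the variance trend, with the replicate number as a block, after rescaling without the stomach and pancreas markers (log2 fold change 0.94) and in 3 of the 4 fits that left out a library. Over all the related lists together, 182 genes, 1 was called and 16 passed an unadjusted p under 0.05 in limma, beside 2.07% and 20.2% of all tested genes. In the same libraries 0 of the 80 ribosomal protein genes were called higher. Only 45 of 11621 tested genes were, a share so small that 0 of 80 does not set the members apart.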

How the data were processed

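Total RNA was taken from intestine with Trizol and sequenced on BGISEQ. The authors deposited FPKM values of 4 libraries. Per the study's methods, reads were mapped with Bowtie2 to reference transcripts of GRCm38.p6 and levels came from RSEM, which splits reads between copies by a model. HISAT and mm10 appear too in the submitters' processing notes, and the sources used here give neither versions nor strand. The authors tested with DESeq2 at a q-value under 0.05, and counts were not used here, so no counting interval is given. Symbols came from RefSeq by gene ID (17473 of 17505 matched).

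Values were used as log2(FPKM + 1). Genes whose mean reached 1 FPKM were tested (11621, with 5884 below) with limma 3.58.1 in R 4.3.3, with a mean-variance trend, two-sided, and Benjamini-Hochberg adjustment over all of them, on 2 residual and 3.08 prior degrees of freedom. Fold changes on this scale understate the change of low genes. The code was tested on simulated data. Replicates are biological per the study, but the labels name no animals, so the p-values cover only the spread among these libraries. The members and lists were chosen with earlier results of these data known. Named genes are the 10 most abundant members, the 5 highest and 5 lowest by fold change, paralogs, 5S and ubiquitin genes, and the called or 2 most abundant genes of each related list. Others were named after their values were seen. Alternatives varied pseudocount, filter, scaling, moderation, block and libraries. Protein sequences were not used here, and 1 related result is withheld and not reported here.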

Additional observations from a re-analysis of the deposited data

How the results depend on the processing

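The count of called ribosomal protein genes was 0 in the fit reported and in each alternative run, also where calls over all genes moved from 241 to 78 (no filter), 141 (pseudocount of 5), 122 (replicate block), or, without Vil-CREPTKO 1, Vil-CREPTKO 2, WT 1 or WT 2, to 419, 900, 4 and 6. The replicate block, the same numbers paired as labelled, changed 1 call among the genes described, that of Myc, so the related genes called went from 1 to 0. Deviations of same-numbered libraries from their group means had a Pearson correlation across genes of -0.26 over tested genes and 0.25 over the ribosomal protein genes. A correlation across genes leaves out a shift common to them. In all 80 ribosomal protein genes Vil-CREPTKO 1 lay above and WT 1 below its group mean, so 0.25 does not mean that same-numbered libraries moved together. The crossed pairing, chosen after seeing the data, gave 346 calls, 0 of them among ribosomal protein genes. The related genes called also went to 0 with pseudocounts of 0.1 and 5, without the filter, without the variance trend and after rescaling without the stomach and pancreas markers (330 calls over all genes), and ranged from 0 to 3 when a library was left out. The cause of these changes was not tested. The rescaling and a centring on the ribosomal protein median were chosen after seeing the data. They moved the median of all tested genes from 0.06 to -0.06 and 0.13 on the log2 scale, the latter with 347 calls.

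Without each library in turn the member median ranged from -0.26 to 0.10 and the difference in share, Vil-CREPTKO minus WT, from -1.08 to 0.34 percentage points, against -0.37 with all libraries. Of 468 alternatives for 36 named genes that left out no library, 447 kept direction and call, 6 lost a call (all Myc) and 15 turned direction. Centred on the ribosomal protein median, log2 fold changes turned to 0.010 in Rpl23a, 0.0052 in Rpl41, 0.034 in Rplp1, 0.066 in Rps2, 0.060 in Rps26 and 0.064 in Tpt1. Rplp0 turned to -0.0075 when centred on the library median. After the rescaling the values were -0.052 in Rpl22, -0.079 in Rpl34, -0.049 in Rpl35, -0.13 in Rplp0, -0.11 in Rps15, -0.073 in Rps27l, -0.049 in Cdkn1a and -0.096 in Fau. Leaving out a library turned 37 of 144 values, in 20 genes. The ranges were -0.090 to 0.26 for Cdkn1a, -0.14 to 0.22 for Fau, -0.42 to 0.10 for Mrpl52, -0.28 to 0.12 for Mrps21, -0.19 to 0.35 for Rpl22, -0.25 to 0.13 for Rpl23a, -0.17 to 0.27 for Rpl34, -0.11 to 0.28 for Rpl35, -0.28 to 0.16 for Rpl41, -0.37 to 0.0025 for Rpl5, -0.16 to 0.17 for Rplp0, -0.24 to 0.17 for Rplp1, -0.12 to 0.56 for Rplp2, -0.36 to 0.19 for Rps12, -0.31 to 0.36 for Rps15, -0.19 to 0.19 for Rps2, -0.23 to 0.21 for Rps26, -0.33 to 0.039 for Rps27a, -0.14 to 0.25 for Rps27l and -0.13 to 0.12 for Tpt1. A fit with 1 library in a group assumes that the lone library varies like the other group.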
